A study of Mus musculus with 6 samples.

Results

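The genes described here are 45 genes for the building and sulfation of glycosaminoglycan chains. They were chosen by name as enzymes and carriers of the pathway, with earlier results of these data known. All 45 were found under those names among the 21878 genes of the deposited count table. They were sorted by function into 6 genes of the linker, 16 of chondroitin and dermatan sulfate, 19 of heparan sulfate and 4 of sulfate supply. RNA was sequenced from mouse Achilles tendon tissue in 6 libraries, 3 titled HO, whose treatment was amputation of the Achilles tendon, and 3 titled Control, whose treatment was a sham operation. The series title places the comparison in a study of bone formation outside the skeleton after trauma, named heterotopic ossification. The labels give no strain, age, sex or time after surgery, and they do not say whether replicates came from separate animals, so p-values measure the spread between these libraries, which may be technical.

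The glycosaminoglycans treated here, chondroitin, dermatan and heparan sulfate, are long sugar chains. They are built in the Golgi apparatus on serine residues of core proteins, which are then called proteoglycans. A short linker that begins with xylose is made first, and the next sugar decides whether the chain becomes chondroitin or heparan sulfate. Polymerases lengthen the chain, epimerases turn glucuronic into iduronic acid, and sulfotransferases add sulfate from the donor PAPS. Chondroitin sulfate fills cartilage matrix with water, dermatan sulfate sits on the small proteoglycans of tendon, and heparan sulfate binds growth factors at cell surfaces and in basement membranes.

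Library totals lay between 28410231 and 31346730 counts in HO and between 23916839 and 27140226 counts in Control, so that 1 count stood for 0.0322 to 0.0408 CPM (counts scaled to a common library size, with TMM factors). Of all genes, 14561 had enough counts to be tested. The HO libraries differed among themselves in skeletal muscle RNA. A list of 12 muscle genes took 1.11%, 0.354% and 10.5% of the counts in HO 1 to 3, against 14.9%, 14.3% and 15.5% in Control 1 to 3, so that HO 3 lay near Control and far from HO 1 and HO 2. The tendon markers Tnmd and Scx were present in every library: Tnmd stood at 585, 1014 and 456 CPM in HO and at 78.2, 69.5 and 44.5 CPM in Control.

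Glycosaminoglycan genes that differed between the groups were, with 1 exception, higher in HO. The 5 with the highest log2 fold change were Chsy1, Chsy3, Xylt1, Chpf and Csgalnact1, which start the linker or start and lengthen chondroitin chains. Of the 45 genes, 43 were tested. HO was higher in 22 and lower in 1, and 20 were not called (n = 3 per group). A call means a Benjamini-Hochberg (BH) adjusted p under 0.05 in the edgeR quasi-likelihood test, with the adjustment made over every tested gene. Over all tested genes, 20.4% were called higher and 12.3% lower, 32.7% either way. The median log2 fold change was 0.78 for the 43 genes, against -0.02 for all tested genes. At least 2-fold increases were called in 16 of the 43 genes and in 12.5% of all tested genes. At least 4-fold increases were called in Xylt1, Csgalnact1, Chsy1, Chsy3, Chpf, Chst11, Dsel and Sulf2, 8 of the 43, beside 4.49% of all tested genes. The 3 HO libraries lay above all Control libraries in 26 genes, below them in 3, and overlapped them in 14, while 28.7% of all tested genes lay wholly above and 26.1% wholly below. In tissue made of many cell types, more cells of a type that uses these genes and more RNA per cell cannot be told apart.

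**Figure D1:**
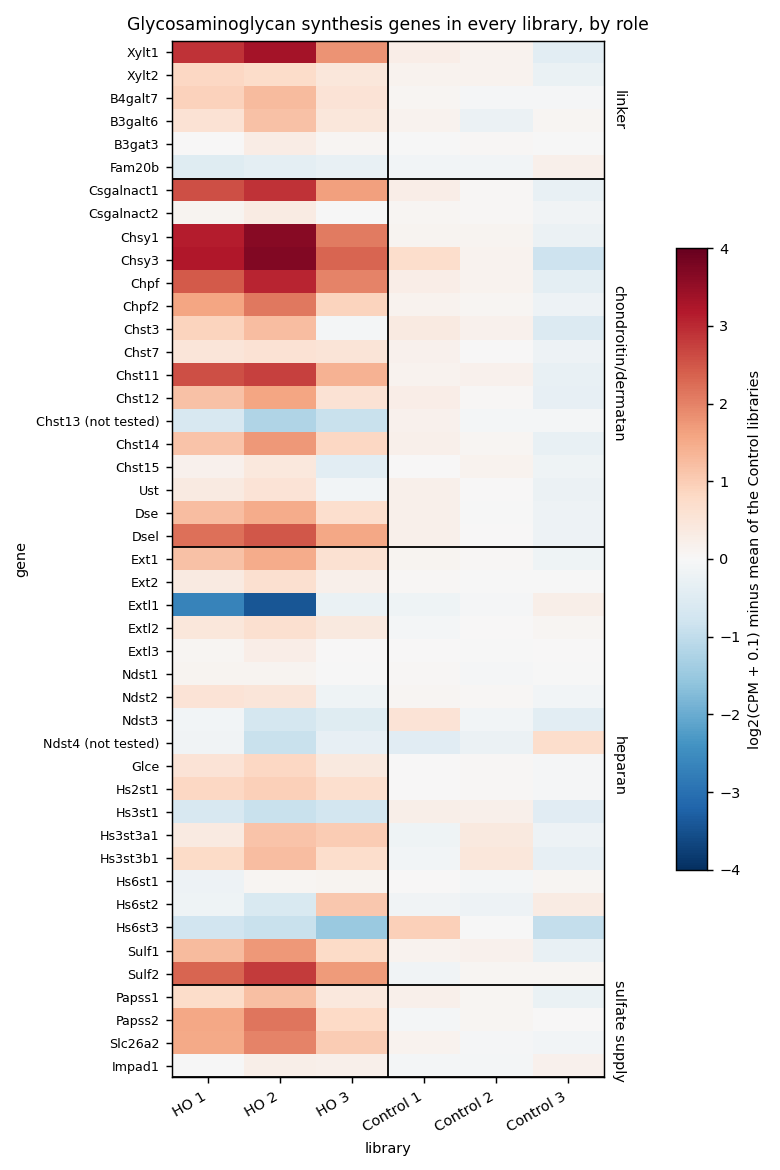
Level of each of the 45 genes in each library, as log2(CPM + 0.1) minus the mean of the 3 Control libraries, with genes in rows by role and HO libraries left of Control libraries. Red is higher and blue lower than the Control mean; the strongest red in HO 1 and in HO 2 lies at Chsy3, Chsy1 and Xylt1, with paler values in HO 3, and the strongest blue at Extl1 in HO 1 and HO 2.

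Size and stability of the calls differed between genes. The calls of 10 genes (Xylt1, Csgalnact1, Chsy1, Chsy3, Chpf, Chst11, Dsel, Hs2st1, Sulf2 and Slc26a2) held in each of 17 alternative analyses, including every fit that left out 1 library. The other 13 lost their call in at least 1 of them, and each is named below with the libraries concerned. All of these except Chpf2 and Papss2 also lost it with the muscle covariate described below. The number of genes called higher was 12, 10 and 10 without Control 1, 2 and 3, 14 and 17 without HO 1 and HO 2, and 28 without HO 3. The share of all tested genes called higher was 10.6%, 7.39% and 9.19% without Control 1, 2 and 3, 10.8% and 12.6% without HO 1 and HO 2, and 28.5% without HO 3. The number called lower was 0 without Control 1, Control 2, HO 1 or HO 2, 1 without Control 3 and 3 without HO 3. The share of all tested genes called lower was 4.55%, 2.95% and 5.4% without Control 1, 2 and 3, and 4.68%, 6.05% and 29.7% without HO 1, 2 and 3. With the log2 level of the muscle genes as a covariate, 13 were higher and 0 lower, beside 9.11% and 3.32% of all tested genes. With the replicate number as a block, 24 were higher and 1 lower, beside 21.7% and 17.3%.

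**Figure D2:**
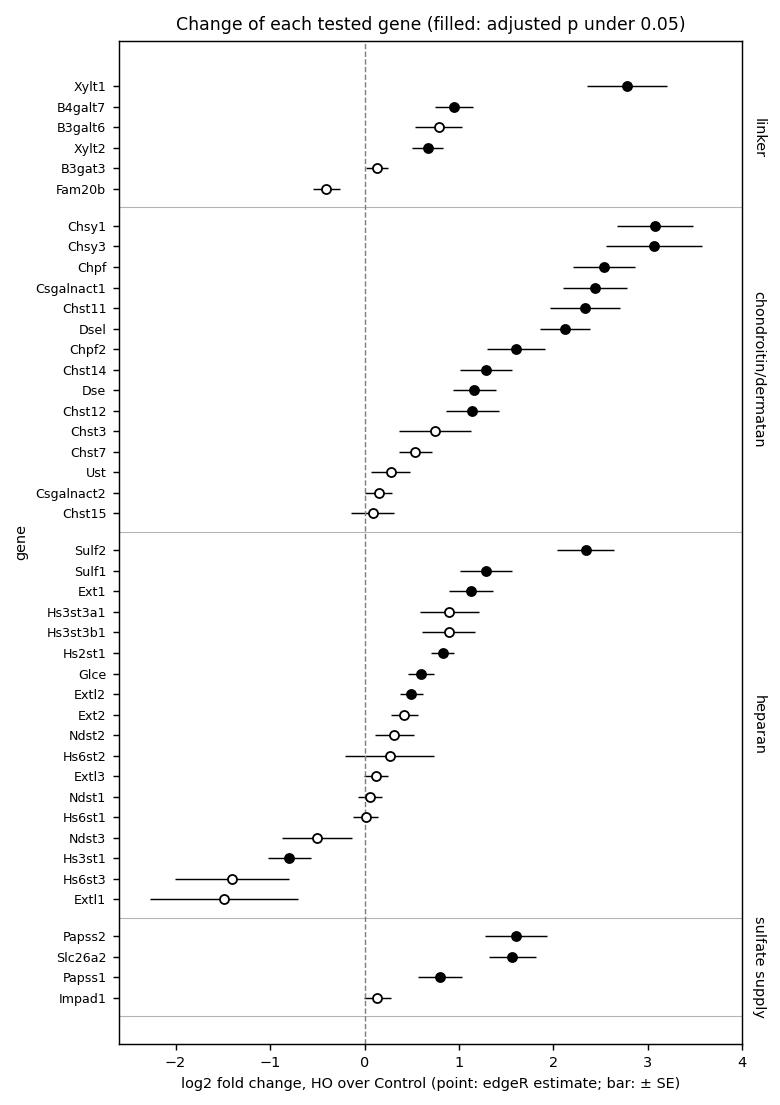
Log2 fold change of HO over Control for the 43 tested genes, sorted within each role; points are edgeR estimates, bars are ± 1 SE (n = 3 per group) and filled points have an adjusted p under 0.05. Chsy1 and Chsy3 lie farthest to the right at 3.08 and 3.06, and Hs3st1, at -0.80, is the filled point left of 0.

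Of the 6 genes that make the linker, 3 rose and 3 were not called, beside 20.4% of all tested genes called higher. The median log2 fold change of the 6 was 0.73. Xylt1 and Xylt2 code for the xylosyltransferases that add the first sugar to the core protein. Xylt1 (NCBI gene 233781, chromosome 7, 117380979 to 117667630, GRCm38.p6) stood at 117, 158 and 54.1 CPM in HO 1 to 3, against 18.8, 17.4 and 11.8 CPM in Control 1 to 3. Xylt2 stood at 29.5, 28.0 and 23.1 CPM in HO, against 18.3, 18.4 and 13.9 CPM in Control. Neither gene overlapped between groups, and HO 3 was the lowest HO library for both. Xylt1 rose 6.86-fold (log2 2.78 ± 0.42, SE, n = 3 per group; edgeR quasi-likelihood BH-adjusted p = 0.00695) and Xylt2 1.59-fold (0.67 ± 0.16; adjusted p = 0.0255). B4galt7, which adds the first galactose, rose by log2 0.95 ± 0.20 with 17.4, 22.4 and 13.5 CPM in HO, against 9.80, 8.93 and 8.85 CPM in Control. The call of Xylt2 was lost without Control 1, 2 or 3, HO 1 or HO 2 (log2 0.51 to 0.73), and that of B4galt7 without Control 1, 2 or 3 or HO 1 (0.89 to 0.99).

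The other linker genes were not called. B3galt6, which adds the second galactose, stood at 5.35, 8.06 and 4.86 CPM in HO, against 3.92, 2.95 and 3.74 CPM in Control, without overlap (log2 0.78 ± 0.25), and was called higher without HO 3 (0.92) and by DESeq2. B3gat3, which adds the closing glucuronic acid, differed by log2 0.13 ± 0.12. Fam20b, the kinase that phosphorylates the linker xylose, stood at 74.0, 79.9 and 84.8 CPM in HO, against 97.1, 97.8 and 121 CPM in Control, and the HO libraries all lay below. Its log2 difference of -0.40 ± 0.14 was not called, but was called lower with the replicate number as a block (-0.40), without HO 3 (-0.45), by DESeq2 and on the FPKM scale.

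Of the 6 genes that begin and extend chondroitin chains, 5 rose and Csgalnact2 was not called, beside 20.4% of all tested genes called higher. Csgalnact1 and Csgalnact2 add the first N-acetylgalactosamine and so commit a linker to chondroitin. Csgalnact1 (NCBI gene 234356, chromosome 8, 68356781 to 68735621) stood at 83.3, 104 and 44.0 CPM in HO, against 16.8, 14.3 and 11.4 CPM in Control. Csgalnact2 stood at 90.0, 104 and 82.2 CPM in HO, against 87.9, 86.1 and 74.8 CPM in Control. The groups were separate for Csgalnact1, which rose 5.43-fold (log2 2.44 ± 0.34), and overlapped for Csgalnact2 (0.15 ± 0.14).

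Chsy1, Chsy3, Chpf and Chpf2 code for the chondroitin synthases and their partner factors, which act as complexes to polymerize the chain. Chsy1 (NCBI gene 269941, chromosome 7, 66109492 to 66173798) stood at 202, 284 and 96.1 CPM in HO, against 24.8, 24.9 and 19.2 CPM in Control. Chsy3 stood at 76.4, 109 and 41.7 CPM in HO, against 13.5, 9.16 and 4.58 CPM in Control. Every HO library lay above every Control library for both synthases, and HO 2 was the highest. Chpf (NCBI gene 74241, chromosome 1, 75474569 to 75479471) stood at 123, 188 and 89.0 CPM in HO, against 27.3, 24.8 and 17.1 CPM in Control. Chpf2 stood at 129, 184 and 79.2 CPM in HO, against 47.5, 44.8 and 36.9 CPM in Control. The partner factors showed the same order of libraries, with HO 2 highest and Control 3 lowest. The increases were 8.43-fold for Chsy1 (log2 3.08 ± 0.41), 8.36-fold for Chsy3 (3.06 ± 0.51), 5.79-fold for Chpf (2.53 ± 0.33) and 3.04-fold for Chpf2 (1.60 ± 0.31). BH-adjusted p-values from edgeR for Csgalnact1 and these 4 genes lay between 0.00526 (Chpf) and 0.0132 (Chpf2). Chpf2 lost its call without Control 2 or Control 3 (log2 1.47 to 1.61), and shares exon sequence with Smarcd3 on the other strand.

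**Figure D3:**
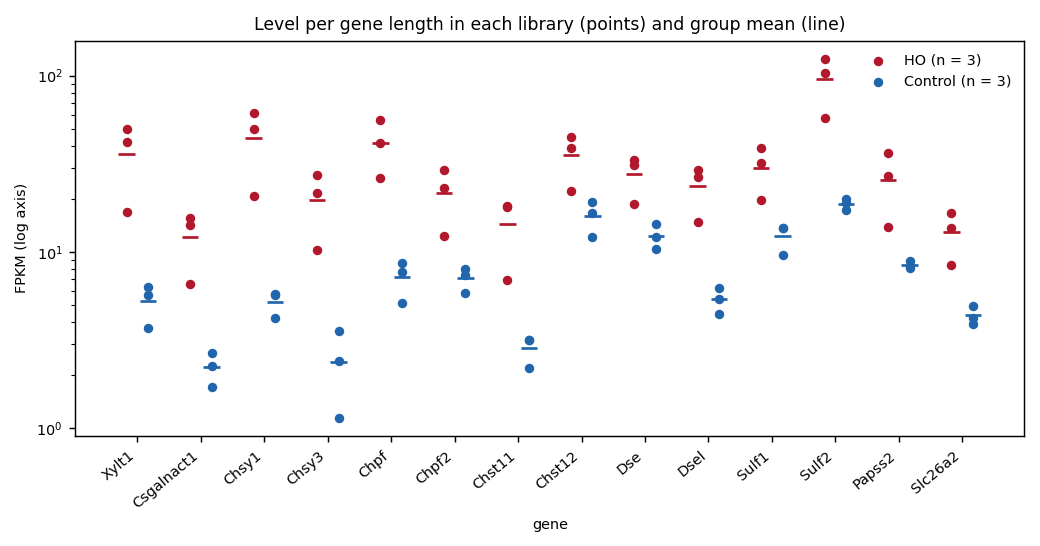
FPKM (counts scaled by gene length and library total, log axis) of 14 genes in each library, HO in red left of Control in blue; points are libraries and lines are means of 3. The HO points lie above all Control points for each gene shown, and the lowest HO point of each is HO 3.

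Among the enzymes that decorate the chain, genes of 4-O-sulfation and of iduronic acid formation were higher, while the genes of the other sulfotransferases were not called. Chst11, Chst12 and Chst13 code for the chondroitin 4-O-sulfotransferases. Chst11 (NCBI gene 58250, chromosome 10, 82984440 to 83195904) stood at 100.2, 111 and 43.7 CPM in HO, against 18.4, 18.7 and 13.6 CPM in Control. Chst12 stood at 65.8, 86.1 and 43.0 CPM in HO, against 34.8, 30.2 and 23.2 CPM in Control. Both were separate between groups, with HO 3 the lowest HO library. Chst11 rose 5.04-fold (log2 2.33 ± 0.37; edgeR quasi-likelihood BH-adjusted p = 0.00769) and Chst12 rose 2.21-fold (1.14 ± 0.28; adjusted p = 0.0259). Chst13 was too low to test, with 3, 1 and 2 counts in HO 1 to 3 and 6, 5 and 5 counts in Control 1 to 3. Chst14 adds the 4-O-sulfate of dermatan sulfate, and stood at 10.9, 16.5 and 8.75 CPM in HO, against 5.64, 5.22 and 3.97 CPM in Control (log2 1.29 ± 0.28). Chst12 lost its call without Control 1, 2 or 3, HO 1 or HO 2 (log2 0.89 to 1.28), and Chst14 without Control 1, 2 or 3 (1.12 to 1.39).

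Dse and Dsel code for the dermatan sulfate epimerases, which turn glucuronic into iduronic acid. Dsel (NCBI gene 319901, chromosome 1, 111858701 to 111865052) stood at 155, 191 and 98.9 CPM in HO, against 38.7, 34.02 and 29.2 CPM in Control. Dse stood at 126, 152 and 86.6 CPM in HO, against 62.1, 53.3 and 47.1 CPM in Control. Again no HO library reached down to a Control library. Dsel rose 4.36-fold (log2 2.13 ± 0.27; edgeR quasi-likelihood BH-adjusted p = 0.00499, the smallest of the 43 genes). Dse rose 2.24-fold (1.16 ± 0.23; adjusted p = 0.0142), and lost its call without Control 2 or Control 3 (1.04 to 1.13).

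Chst3 and Chst7, the chondroitin 6-O-sulfotransferase genes, were not called. Chst3 stood at 20.2, 25.8 and 10.3 CPM in HO, against 14.0, 12.3 and 7.37 CPM in Control (log2 0.75 ± 0.38), and HO 3 lay inside the Control range. It was called higher without HO 3 (1.04) and with the replicate block (0.70), and stood at -0.24 with the muscle covariate. Chst7 stood at 4.38, 4.72 and 4.49 CPM in HO, against 3.51, 3.14 and 2.71 CPM in Control, without overlap (0.54 ± 0.18), and was called by DESeq2. Chst15, which adds a second sulfate to 4-O-sulfated units, stood at 36.4, 43.7 and 24.1 CPM in HO, against 33.0, 36.0 and 29.0 CPM in Control (0.09 ± 0.23). Its direction was not fixed: it was -0.03 without Control 3, -0.11 without HO 2 and -0.53 with the muscle covariate. Ust, the uronyl 2-O-sulfotransferase, overlapped between groups (0.28 ± 0.21) and was called higher without HO 3 (0.45).

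Of the chondroitin and dermatan genes that rose at least 4-fold, Csgalnact1 and Chsy3 had no sequence among the RefSeq promoters used. The promoter sequences of the others, Chpf, Dsel, Chsy1 and Chst11, are shown. Each runs 5′ to 3′ on the gene's strand, from 250 bases before to 50 bases after the annotated start, in GRCm38.p6, with motif matches in capitals. Chpf lies at chr1:75479422-75479721 (minus strand), Dsel at chr1:111864869-111865168 (minus), Chsy1 at chr7:66109242-66109541 (plus) and Chst11 at chr10:82985247-82985546 (plus).
Chpf: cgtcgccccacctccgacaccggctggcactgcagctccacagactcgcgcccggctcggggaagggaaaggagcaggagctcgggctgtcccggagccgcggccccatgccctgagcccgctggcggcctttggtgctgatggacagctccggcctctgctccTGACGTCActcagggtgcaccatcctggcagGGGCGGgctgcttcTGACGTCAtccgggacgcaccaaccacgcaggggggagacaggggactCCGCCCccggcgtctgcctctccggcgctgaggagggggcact
Dsel: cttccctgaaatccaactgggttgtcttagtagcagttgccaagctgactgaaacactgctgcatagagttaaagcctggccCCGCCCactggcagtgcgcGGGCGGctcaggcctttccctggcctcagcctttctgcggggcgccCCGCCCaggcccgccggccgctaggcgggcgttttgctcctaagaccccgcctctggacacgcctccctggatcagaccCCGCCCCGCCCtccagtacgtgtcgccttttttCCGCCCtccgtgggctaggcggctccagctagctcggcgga
Chsy1: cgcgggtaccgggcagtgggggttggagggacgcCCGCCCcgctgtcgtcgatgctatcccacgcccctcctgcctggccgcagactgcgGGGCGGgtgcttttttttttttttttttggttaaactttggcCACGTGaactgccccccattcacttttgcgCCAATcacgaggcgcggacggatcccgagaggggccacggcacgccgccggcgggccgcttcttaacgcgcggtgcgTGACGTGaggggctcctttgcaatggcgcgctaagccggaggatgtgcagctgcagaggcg
Chst11: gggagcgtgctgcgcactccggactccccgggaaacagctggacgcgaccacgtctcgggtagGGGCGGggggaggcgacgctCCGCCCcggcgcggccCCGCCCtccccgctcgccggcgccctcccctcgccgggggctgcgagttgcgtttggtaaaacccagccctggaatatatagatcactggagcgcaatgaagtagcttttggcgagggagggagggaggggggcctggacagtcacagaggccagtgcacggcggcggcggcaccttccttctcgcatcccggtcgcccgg
The capitals mark matches, on either strand, to 9 short motifs, each compared here between the 44 promoters of the 35 glycosaminoglycan genes in the table and the 14693 promoters of tested genes. The GC box, GGGCGG, was in all 4 sequences shown, with 6 matches in Dsel, 3 in Chst11, 2 in Chsy1 and 2 in Chpf, and stood in 61.4% of the glycosaminoglycan promoters and 59.3% of those of tested genes. The CRE half-site, TGACG, had 4 matches in Chpf, which form 2 places where both strands match, and stood in 34.1% and 28.6%. The UPRE core, TGACGTG, contains that half-site, so a match to it is also a match to the half-site, and it was found in 4.55% and 2.55%, once in Chsy1. Chsy1 also held 1 E-box, CACGTG, found in 11.4% and 9.35%. It held 1 CCAAT box as well, searched as CCAAT and found in 47.7% and 37.3%. The other motifs were absent from the 4 sequences. The CACCC box, CCACCC, was in 36.4% and 37.3% of promoters. The nuclear receptor half-site, AGGTCA, was in 6.82% and 12.8%. A TATA box, TATAAA, was in 4.55% and 7.88%. The SOX motif, ACAATGG, was in 0 of the 44 and in 2.10% of those of tested genes. These matches describe letters and do not show binding.

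Among the 18 tested heparan sulfate genes, 6 rose, 1 fell and 11 were not called, with a median log2 fold change of 0.37. Over all tested genes, 20.4% were called higher and 12.3% lower. The HO libraries lay wholly above Control in 8 of the 18 and wholly below in 2, beside 28.7% and 26.1% of all tested genes. Ext1 and Ext2 code for the copolymerase that lengthens heparan chains. Ext1 stood at 115, 143 and 78.2 CPM in HO, against 55.1, 53.5 and 45.8 CPM in Control. Ext2 stood at 70.1, 85.1 and 62.6 CPM in HO, against 55.6, 53.5 and 53.4 CPM in Control. Both genes were separate between groups. Ext1 rose 2.18-fold (log2 1.13 ± 0.23; edgeR quasi-likelihood BH-adjusted p = 0.0158). Ext2 was not called (0.42 ± 0.14), except without HO 3 (0.52). Ext1 lost its call without Control 1, 2 or 3 or HO 1 (1.01 to 1.17). Extl3, which adds the first N-acetylglucosamine and so commits a linker to heparan sulfate, differed by 0.12 ± 0.13 and overlapped. Extl2, whose product can cap a phosphorylated linker, rose by 0.50 ± 0.12 and lost its call without Control 1, 2 or 3, HO 1 or HO 2 (0.42 to 0.52).

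Extl1, a relative of the heparan polymerases, was low in the HO libraries with little muscle RNA. It stood at 7.44, 4.39 and 39.5 CPM in HO 1 to 3, against 42.4, 45.7 and 56.0 CPM in Control 1 to 3. HO 1 and HO 2, with muscle shares of 1.11% and 0.354%, were low, and HO 3, with 10.5%, lay close to Control. The log2 difference of -1.49 ± 0.78 was not called. It was called without HO 3 (-3.02) and stood at 0.008 with the muscle covariate.

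The N-deacetylase/N-sulfotransferase genes, whose products start heparan sulfation, were not called. Ndst1 stood at 193, 194 and 177 CPM in HO, against 187, 174 and 180.1 CPM in Control (log2 0.06 ± 0.13). Ndst2 overlapped (0.31 ± 0.20) and was called higher without HO 3 (0.51). Ndst3 was at most 1.72 CPM in any library (-0.50 ± 0.37), and Ndst4 was too low to test, with 4, 1 and 3 counts in HO and 2, 3 and 8 counts in Control. Glce, the heparan epimerase, rose by 0.60 ± 0.14, and Hs2st1, the iduronic acid 2-O-sulfotransferase that acts after it, by 0.83 ± 0.12. Hs2st1 stood at 80.2, 87.8 and 71.4 CPM in HO, against 45.2, 46.1 and 43.5 CPM in Control (edgeR quasi-likelihood BH-adjusted p = 0.00661), and its groups were well apart. Glce lost its call without Control 1, 2 or 3, HO 1 or HO 2 (0.47 to 0.63).

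Among the 3-O-sulfotransferase genes, Hs3st1, whose product makes the antithrombin-binding site of heparin, was called lower, with 5.54, 4.66 and 5.27 CPM in HO, against 10.3, 10.1 and 6.41 CPM in Control. All HO libraries lay below all Control libraries, and Control 3 was the nearest. Its log2 difference was -0.80 ± 0.22 (edgeR quasi-likelihood BH-adjusted p = 0.0379). The call was lost on both FPKM scales, with the replicate block (-0.77), with the muscle covariate (-0.72) and without Control 1, Control 2, HO 1 or HO 2 (-0.85 to -0.68). Hs3st3a1 (0.90 ± 0.32) and Hs3st3b1 (0.89 ± 0.28) were not called, though DESeq2 called both. Hs3st3b1 was also called with upper quartile scaling, by limma-voom, on log2(FPKM + 1), with the replicate block (0.91) and without HO 3 (0.99). These paralogs share a near-identical stretch of coding sequence, and how reads were split between them is uncertain.

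The 6-O-sulfotransferase genes were not called. Hs6st1 stood at 32.9, 40.4 and 41.3 CPM in HO, against 38.4, 35.7 and 39.7 CPM in Control, and its direction changed with the library left out (-0.05 to -0.03 without Control 2, HO 2 or HO 3, against 0.01 with all). Hs6st2 stood at 2.09, 1.55 and 5.13 CPM in HO, against 2.16, 2.08 and 3.05 CPM in Control, with HO 3 the highest of the 6 libraries. Its difference was 0.26 ± 0.47, -0.41 without HO 3, and 1.24 and called with the muscle covariate. Hs6st3 was at most 1.72 CPM (-1.41 ± 0.60).

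Sulf1 and Sulf2, the extracellular sulfatases that remove 6-O-sulfate from finished heparan chains, were both higher, and Sulf2 had the largest increase of the heparan group. Sulf2 (NCBI gene 72043, chromosome 2, 166073899 to 166155683) stood at 407, 556 and 261 CPM in HO, against 72.8, 84.6 and 84.3 CPM in Control. Sulf1 stood at 194, 266 and 137 CPM in HO, against 89.0, 90.3 and 65.8 CPM in Control. Neither overlapped, and HO 2 was the highest for both. Sulf2 rose 5.07-fold (log2 2.34 ± 0.30; edgeR quasi-likelihood BH-adjusted p = 0.00516) and Sulf1 2.44-fold (1.28 ± 0.27; adjusted p = 0.0173). Sulf1 lost its call without Control 1, 2 or 3 or HO 1 (1.11 to 1.35). Sulf2 shares exon sequence with Ncoa3 on the other strand.

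Of the 4 genes that bring in and activate sulfate or clear the used donor, 3 rose, with a group median of log2 1.18. Over all tested genes, 20.4% were called higher. Slc26a2, the sulfate transporter of the plasma membrane, stood at 48.4, 66.2 and 34.1 CPM in HO, against 18.6, 16.2 and 15.6 CPM in Control. Papss2, a PAPS synthase that is mutated in human skeletal dysplasia, stood at 95.6, 145 and 56.6 CPM in HO, against 30.7, 34.1 and 33.3 CPM in Control. Papss1, the other PAPS synthase, stood at 40.1, 55.4 and 32.6 CPM in HO, against 28.1, 25.4 and 20.0 CPM in Control. The groups were separate for all 3, most widely for Slc26a2 and Papss2. The increases were 2.95-fold for Slc26a2 (log2 1.56 ± 0.25), 3.03-fold for Papss2 (1.60 ± 0.33) and 1.74-fold for Papss1 (0.80 ± 0.23), at BH-adjusted edgeR p-values of 0.00792, 0.0155 and 0.0406. Papss2 lost its call without Control 1, 2 or 3 (1.55 to 1.61), and Papss1 without Control 1, 2 or 3, HO 1 or HO 2 (0.57 to 0.91). Impad1, the phosphatase that degrades the spent donor in the Golgi, was not called (0.14 ± 0.14).

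For 13 pairs or groups of enzymes that do the same or competing work, the ratio of their FPKM was taken within each library, which compares levels per gene length. The groups did not overlap in 9 of the 13. Of single tested genes 54.8% did not overlap, but no such share was counted for ratios. The ratios reuse the levels of genes called above, so they are not separate evidence of a difference. Each of the 9 had an exact 2-sided permutation p of 0.1, the smallest that 3 against 3 libraries allow, and 0.144 after Benjamini-Hochberg adjustment over 13 ratios, so none could pass 0.05. Xylt1 made up 82.6%, 87.1% and 73.7% of the xylosyltransferase FPKM in HO 1 to 3, against 55.2%, 53.0% and 50.4% in Control 1 to 3. Csgalnact1 made up 38.0%, 39.9% and 26.2% of the pair it forms with Csgalnact2 in HO, against 11.3%, 9.99% and 9.24% in Control. At both starting steps the share was higher in every HO library than in any Control library. Chpf made up 64.3%, 65.9% and 68.0% of Chpf and Chpf2 in HO, against 52.1%, 51.1% and 46.7% in Control. Dsel made up 46.2%, 46.7% and 44.3% of the epimerase pair in HO, against 30.3%, 30.8% and 30.2% in Control, with little spread inside either group.

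Among sulfotransferases, the ratio of Chst3 and Chst7 to the 4-O-sulfotransferases was 0.0731, 0.0689 and 0.0977 in HO, against 0.130, 0.130 and 0.127 in Control. The ratio of Chst15 to the 4-O-sulfotransferases was 0.123, 0.119 and 0.139 in HO, against 0.264, 0.324 and 0.343 in Control. These 2 ratios were lower in HO, by log2 -0.71 and -1.29. Of the genes in them, Chst11 and Chst12 were called. The ratio of Chst14 to the same genes overlapped (log2 -0.09; exact permutation p = 0.7), as did Chsy3 over Chsy1 (0.13; p = 0.7), Ndst2 over Ndst1 (0.22; p = 0.4) and Hs6st2 over Hs6st1 (0.09; p = 0.8). Ext1 made up 59.4%, 59.96% and 52.6% of Ext1 and Ext2 in HO, against 46.8%, 47.1% and 43.3% in Control. Sulf2 made up 76.4%, 76.3% and 74.7% of both sulfatases in HO, against 55.8%, 59.1% and 66.4% in Control. Papss2 made up 64.2%, 66.3% and 56.6% of both synthases in HO, against 45.02%, 50.2% and 55.6% in Control, where HO 3 and Control 3 lay close together.

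**Figure D4:**
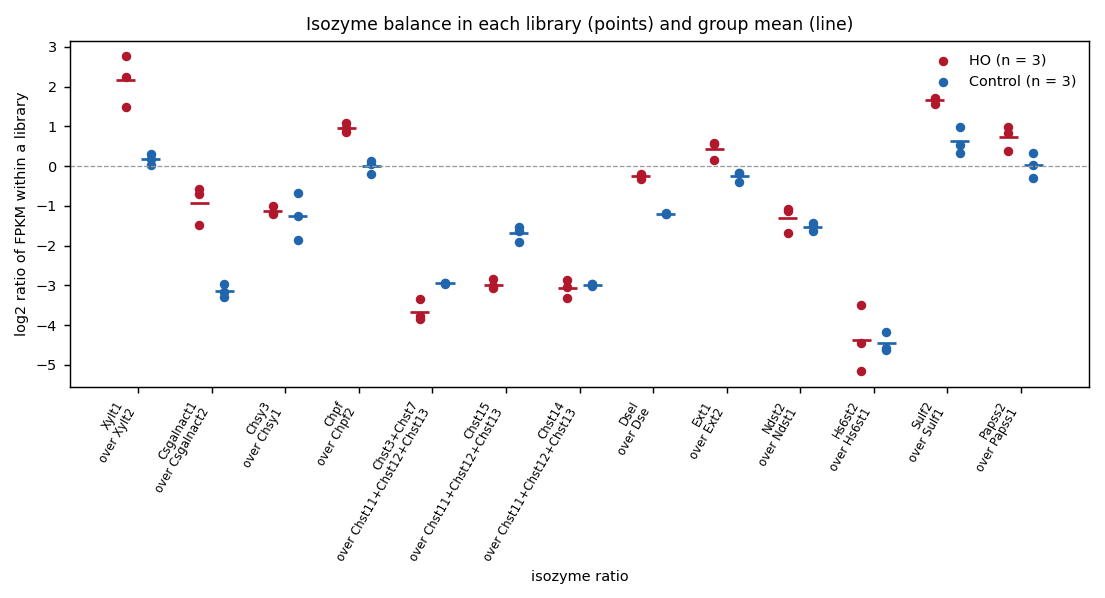
Log2 ratio of FPKM between related enzymes within each library, HO in red left of Control in blue; points are libraries and lines are means of 3. The groups are apart in 9 of 13 ratios, 7 with HO higher and 2 (Chst3 and Chst7, and Chst15, each over the 4-O-sulfotransferases) with HO lower.

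Summed FPKM of the chondroitin and dermatan genes was 311, 364 and 171 in HO, against 109, 98.7 and 76.0 in Control, a ratio of means of 2.98. The heparan genes summed to 297, 326 and 207 FPKM in HO, against 159, 158 and 146 FPKM in Control, a ratio of 1.79. The chondroitin sum over the heparan sum was 1.05, 1.11 and 0.826 in HO, against 0.686, 0.627 and 0.521 in Control, so chondroitin genes reached the heparan sum in HO 1 and HO 2 but not in HO 3. Each of these 3 comparisons had an exact 2-sided permutation p of 0.1, the smallest possible. The 4 polymerase genes summed to 136, 174 and 69.3 FPKM in HO, against 25.9, 23.2 and 16.3 FPKM in Control. Sulf1 and Sulf2 together made up 45.5%, 50.1% and 37.4% of the heparan sum in HO, against 19.5%, 21.3% and 19.5% in Control.

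The order of the genes by mean FPKM differed between groups. In HO it was led by Sulf2 (103, 125 and 57.8 FPKM), Chsy1 (49.7, 61.7 and 20.6), Chpf (41.6, 56.1 and 26.2), Xylt1 (41.8, 49.6 and 16.8) and Chst12 (38.9, 44.99 and 22.1), each of which overlapped the next in range. In Control it was led by Impad1 (22.2, 21.8 and 25.3 FPKM), Fam20b (21.8, 21.6 and 25.6), Ndst1 (22.5, 20.6 and 20.4), Csgalnact2 (21.1, 20.4 and 16.9) and Sulf2 (17.3, 19.9 and 18.9), whose ranges also overlapped between neighbours. Chsy1 ranked 25, Xylt1 24 and Chpf 18 of 45 in Control. The first 4 genes of the Control order were not called between groups.

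The other genes of the pathway came to 82, in 7 lists written from general knowledge, with earlier results of these data known. Among them, 74 were tested, 46 were higher, 4 lower and 24 not called. Over all tested genes, 20.4% were called higher and 12.3% lower. Without Control 2, 17 of the listed genes were higher and 1 lower, beside 7.39% and 2.95% of all tested genes. Of 15 genes that supply nucleotide sugars, 9 were higher and 1 lower. Uap1l1, related to the enzyme that makes UDP-N-acetylglucosamine, rose by log2 1.39 ± 0.24. Gfpt1, the entry enzyme of hexosamine synthesis, rose by 0.90 ± 0.16 (not called without Control 2, 0.85). Ugp2, which makes UDP-glucose and is also needed for glycogen, was the lower one at 125, 115 and 349 CPM in HO, against 560.5, 694 and 817 CPM in Control (-1.81 ± 0.48). Its call was lost without Control 1, 2 or 3, HO 1 or HO 2 (-1.95 to -1.55) and with the muscle covariate (-0.89). Of 5 tested genes of sulfate and PAPS transport, 3 were higher. Slc35b2, the Golgi carrier of PAPS, rose by 1.06 ± 0.19 (not called without Control 2, 1.01). Slc26a1, another sulfate transporter, rose by 3.18 ± 0.65, with at most 0.305 CPM in a Control library. The call of Slc26a1 was lost without Control 1 or 2 (2.81 to 3.004) and with the muscle covariate (1.98).

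Among other chain enzymes 2 of 7 were tested. Pxylp1, the phosphatase that removes the linker phosphate set by Fam20b, rose by log2 1.30 ± 0.29. Its call was lost without Control 2, Control 3, HO 1 or HO 2 (1.11 to 1.31) and with the muscle covariate (0.65). Hs3st5, a further 3-O-sulfotransferase, was not called (-1.59 ± 1.02), with 0.258, 0.135 and 3.49 CPM in HO, against 4.04, 3.97 and 3.70 CPM in Control, and was called lower without HO 3 (-4.27). Like Extl1, it was low in HO 1 and HO 2 and near Control in HO 3. Of 9 tested keratan sulfate genes, 4 were higher and 1 lower, beside 20.4% and 12.3% of all tested genes. B3gnt2, which extends the chain, rose by 1.18 ± 0.19. Chst1, its galactose 6-O-sulfotransferase, fell by 1.03 ± 0.14 on the log2 scale. Of 19 genes that break chains down, 13 were higher and 6 were not called. Naglu, a lysosomal heparan-degrading glucosaminidase, rose by 1.78 ± 0.24 and Gusb, the lysosomal glucuronidase, by 1.15 ± 0.16.

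The core proteins that carry the chains were higher in most cases. Of 12 chondroitin and dermatan sulfate core protein genes, 8 were higher and 2 lower, beside 20.4% and 12.3% of all tested genes. Acan, the cartilage proteoglycan aggrecan, stood at 1921, 3099 and 915.5 CPM in HO, against 27.0, 17.1 and 8.85 CPM in Control (log2 6.81 ± 0.74), and Col9a2, a chain of type IX collagen that can carry chondroitin sulfate, rose by 7.62 ± 0.88. Ncan, the brain proteoglycan neurocan, fell by 2.56 ± 0.51 on the log2 scale, at or below 1.68 CPM in each library. The call of Ncan was lost without Control 2 or Control 3 (-2.68 to -2.26) and with the muscle covariate (-2.41). Of 12 tested heparan sulfate core protein genes, 8 were higher and 4 were not called. The smallest p-values were those of Col18a1 (1.03 ± 0.15), a basement membrane collagen, and Sdc3 (1.83 ± 0.29), a syndecan.

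HO 3 was the lowest HO library for 33 of the 43 tested glycosaminoglycan genes (76.7%), and for 6268 of 14561 tested genes (43.0%). Median log2 differences from the Control mean in HO 1 to 3 were 0.72, 1.15 and 0.52 over the 43 genes, 0.70, 0.96 and 0.46 for the linker, 1.22, 1.73 and 0.83 for chondroitin and dermatan, 0.37, 0.57 and 0.30 for heparan, and 1.12, 1.58 and 0.61 for sulfate supply. HO 2, with the lowest muscle share, had the highest median in each role. Without HO 3 the median of the 43 genes was 0.90, with the muscle covariate 0.46. The muscle covariate kept the calls of Xylt1, Csgalnact1, Chsy1, Chsy3, Chpf, Chpf2, Chst11, Dsel, Hs2st1, Sulf2, Papss2 and Slc26a2, with log2 values such as 1.91 for Chsy1, 1.62 for Xylt1 and 1.57 for Sulf2. Of the 12 muscle genes, edgeR called 0, with an unadjusted p under 0.05 for 1, while DESeq2 called 3 lower, and edgeR without HO 3 called all 12 lower.

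**Figure D5:**
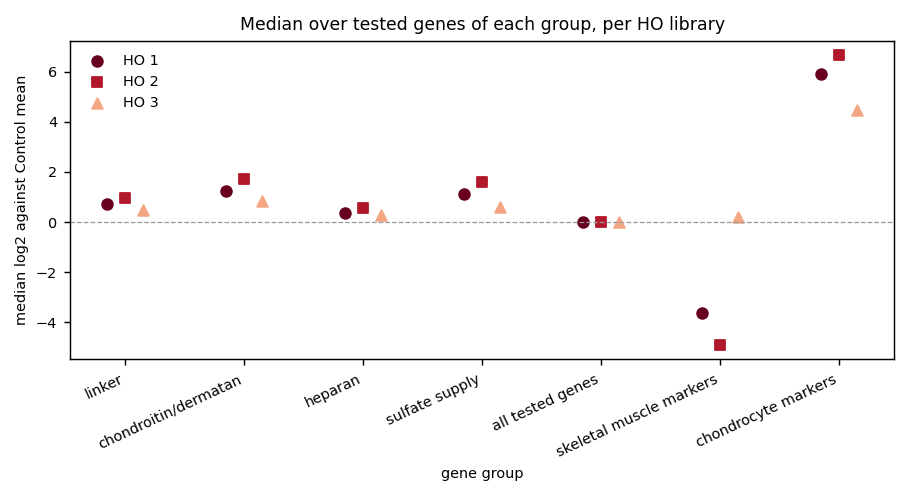
Median log2 difference from the Control mean in HO 1, HO 2 and HO 3, over the tested genes of each role, all tested genes, muscle markers and chondrocyte markers. In the 4 roles HO 2 is the highest and HO 3 the lowest, all above 0, while the muscle markers lie at -3.64 and -4.91 in HO 1 and HO 2 and at 0.19 in HO 3.

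Markers of other cells also differed. The called counts below stand beside 20.4% of all tested genes called higher and 12.3% called lower. Of 8 tested chondrocyte markers 7 were higher, and the list summed to 7555, 8371 and 1739 CPM in HO, against 1689, 1159 and 474 CPM in Control. The marker that was not called, Chad, a cartilage matrix protein named after its values were seen, stood at 456, 746 and 335 CPM in HO, against 1535, 1058 and 399 CPM in Control (log2 -0.96 ± 0.55), and made up 90.9%, 91.2% and 84.3% of the Control sums. The other chondrocyte markers summed to 7099, 7625 and 1404 CPM in HO, against 154, 102 and 74.6 CPM in Control. The cartilage collagen Col2a1 stood at 5595, 5596 and 861 CPM in HO, against 17.4, 6.51 and 5.04 CPM in Control. Fibroblast markers, 4 of 6 higher, summed to 125425, 165798 and 68021 CPM in HO, against 11917, 11414 and 5826 CPM in Control. Most of that sum was the collagen genes Col1a1, Col1a2 and Col3a1, which were called higher, as was Lum. Pdgfra (log2 0.44 ± 0.28) and Dpt (0.82 ± 0.29) were not called. Tenocyte markers, 4 of 6 higher, summed to 7652, 13378 and 5655 CPM in HO, against 4493, 3531 and 1925 CPM in Control. In these 3 lists, as in most glycosaminoglycan genes, HO 3 was the lowest HO library. Macrophage markers, 8 of 8 higher, summed to 727, 593 and 803 CPM in HO, against 226, 297 and 280 CPM in Control, with HO 3 the highest. Proliferation markers, 6 of 6 higher, summed to 77.8, 116 and 67.9 CPM in HO, against 9.76, 11.2 and 11.98 CPM in Control. Of 5 tested osteoblast markers, edgeR, DESeq2 and limma-voom called 0, and 0 had an unadjusted p under 0.05 in edgeR, while 2 were called higher without HO 3. The osteoblast list summed to 95.8, 68.9 and 8.69 CPM in HO, against 162, 106 and 23.9 CPM in Control, with overlap. Most of that sum was Ibsp in every library, so it mainly follows that gene (log2 -0.85 ± 1.03). The other tested osteoblast markers differed in sign: Bglap2 (1.97 ± 1.19) and Sp7 (1.93 ± 0.85) were positive. Phex (-0.29 ± 0.52) and Dmp1 (-0.03 ± 0.72) were negative. The sum therefore gives no direction for the list. Adipocyte markers were called lower in 6 of 6 and endothelial markers in 2 of 6. For all 6 endothelial markers the HO libraries lay wholly below Control, beside 26.1% of all tested genes. The part of these cell types in the differences of the glycosaminoglycan genes was not tested.

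Strand and overlap limit 8 of the 45 genes: B4galt7, Fam20b, Chsy1, Chpf2, Chst15, Hs3st3a1, Hs6st1 and Sulf2 share exon sequence with a gene on the other strand. The libraries were stranded, but the strand setting of the counting is not given in the sources used here.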

How the data were processed

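Per the labels' protocols, RNA isolated with a mirVana kit went into ribosome-depleted, stranded TruSeq libraries. The submitters' processing notes name Trimmomatic, HISAT2 and the build GRCm38.p6. The counting program and its strand setting are not given in the sources used here. Raw counts, whole numbers for each gene and library, made up one deposited table. The deposited FPKM table held those counts divided by gene length and library total: the implied length was whole, within 0.01 bases, for 100% of genes counted in all 6 libraries. Positions came from RefSeq (GRCm38.p6) by NCBI gene identifier, promoters from its promoter table, and exon overlaps from the GENCODE annotation of GRCm38. The closest pair of libraries, Control 1 and 2, had a per-gene chi-square of 15.3, so all 6 were kept.

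The analysis used edgeR 4.0.16 in R 4.3.3: filterByExpr (14561 genes tested, 7317 not), TMM scaling, and the quasi-likelihood test of HO against Control with all 6 libraries, no covariate and Benjamini-Hochberg adjustment over all tested genes (threshold 0.05). The common biological coefficient of variation was 0.296. CPM use TMM-scaled library sizes. SE was obtained as |log2 fold change| over the root of F. Ratios between enzymes used summed FPKM + 0.01 on the log2 scale, with an exact 2-sided permutation test. In simulated counts for 14452 genes of this comparison, 79% of 4-fold and 10% of 2-fold changes were called, and 6 unchanged genes. The simulation changed 100 genes 4-fold and 100 genes 2-fold, left out the lowest genes from these, and kept all others unchanged. In the real fit 32.7% of tested genes were called, which eases the adjusted threshold, so these shares do not carry over to it. Tables were made in Python 3.11.15.

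Same-numbered HO and Control libraries deviated together, with correlations of 0.259, 0.130 and 0.409, against -0.332 to 0.244 between libraries of unlike number. HO 2 correlated more with Control 1 (0.244) than with Control 2. All 3 same-numbered values were over 0.1, but so was HO 1 with Control 2 (0.115), so these values do not establish a pairing. The labels state none, and the main fit used none. A fit with the replicate number as a block was an alternative. The others were DESeq2 1.42.0 size factors, upper quartile scaling, library sizes without muscle and erythroid genes, 2 other filters on low counts, DESeq2's Wald test, limma 3.58.1 (voom, and on log2 FPKM with pseudocounts of 1 and 0.1), a muscle covariate, and leaving out each library. All 45 genes are accounted for. Genes called with a log2 change of at least 1 in size, and those in separate ratios, are given in every library. Of each other list the 2 genes with the smallest p-values are named and, where genes were called both ways, the best-ranked gene of the opposite sign. Tnmd, Scx and Col2a1 were named as markers, and Chad after its values were seen. The genes and lists were chosen with earlier results of these data known.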

Additional observations from a re-analysis of the deposited data

How the results depend on the processing

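Of the 23 calls among the 43 tested genes, 22, all except that of Hs3st1, held under every alternative other than the muscle covariate and the fits that left out a library. With the muscle covariate, higher and lower calls were 13 and 0 over the glycosaminoglycan genes, 1 higher in the linker, 3 and 0 in the heparan group, 20 and 1 over the other pathway lists, and 1326 and 484 over all tested genes. HO 3 and the Control libraries share a high muscle level, so this fit rests largely on HO 3. DESeq2's Wald test called 26 glycosaminoglycan genes higher and 2 lower, 1 of the lower ones in the linker. It was run on 21878 genes with its own filter on low counts, and called 2753 of them lower. On log2(FPKM + 1), on log2(FPKM + 0.1) and with the replicate block, 1 linker gene and 0 heparan genes were lower. Beyond Fam20b, Chst3, Hs3st3b1 and Hs3st1, the block changed no call of a glycosaminoglycan gene.

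Leaving out 1 library at a time, calls ranged from 10 to 28 higher and from 0 to 3 lower over the glycosaminoglycan genes, from 1 to 4 higher and 0 to 1 lower in the linker, from 6 to 12 higher in the chondroitin group, from 2 to 9 higher and 0 to 2 lower in the heparan group, and from 1 to 3 higher in sulfate supply. They ranged from 17 to 53 higher and 1 to 8 lower over the other lists, and from 1091 to 4212 higher and 436 to 4392 lower over all genes. The cause was not tested.

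Reversals occurred among genes that were not called. With the muscle covariate the log2 values were -0.068 for Csgalnact2, -0.24 for Chst3, -0.53 for Chst15, -0.20 for Ust, 0.0080 for Extl1, -0.045 for Extl3, -0.035 for Ndst1, -0.20 for Ndst2 and 0.31 for Hs3st5. Hs6st1 was at -0.015 when library sizes left out muscle and erythroid genes and at -0.011 without a filter. With a library left out, Chst15 ranged from -0.11 to 0.30, Hs6st1 from -0.051 to 0.11 and Hs6st2 from -0.41 to 0.56. Among ratios, Chsy3 over Chsy1 was -0.15 with FPKM + 1 and ranged from -0.17 to 0.42 with a library left out, Chst14 over the 4-O-sulfotransferases from -0.20 to 0.032, and Hs6st2 over Hs6st1 from -0.35 to 0.48. At this depth 1 count is 0.0322 to 0.0408 CPM, which limits Chst13, Ndst4, Ndst3 and Hs6st3.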
